A study of Mus musculus with 50 samples.

Results

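The 39 genes described here are 21 glutathione transferase genes and 18 genes of the NRF2 pathway, measured in mouse liver and liver tumours. They were chosen by name, as the rows of the count table whose gene symbol is on the list, and all 39 were found among 45792 rows. RNA-seq was performed on non-tumour and tumour liver tissue of C3H/He mice harvested at 48 weeks, a strain in which liver tumours arise without a carcinogen. Mice were fed the ALIOS diet, a high-fat diet rich in trans-fat with fructose in the drinking water, or a control diet. The control diet gave 12 non-tumour livers (N1 to N12) and the ALIOS diet 11 (N13 to N23). Spontaneous tumours, from mice given no carcinogen, numbered 13 on the ALIOS diet (T1 to T6 and T8 to T14) and 1 on the control diet (T7). Tumours of mice that also received diethylnitrosamine (DEN), a liver carcinogen, numbered 8 on the ALIOS diet (T15, T16 and T22 to T27) and 5 on the control diet (T17 to T21). No genotype is given, so the groups differ by diet, tissue and DEN as labelled, and no DEN-treated non-tumour liver was analysed here. The labels do not say which tumour came from which mouse.

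Glutathione transferases couple glutathione, the main small thiol of the cell, to reactive chemicals and to products of lipid oxidation, and the conjugates are then exported. NRF2, encoded by Nfe2l2, is a transcription factor that KEAP1 holds in the cytoplasm and hands over for degradation. When KEAP1 is modified by oxidants or electrophiles, NRF2 enters the nucleus, pairs with small MAF proteins on antioxidant response elements and raises the transcription of genes for glutathione synthesis, quinone reduction, peroxide removal and NADPH supply. The liver is rich in these enzymes, and several of them are known to be more abundant in hepatocytes near the central vein.

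Between 23798251 and 45751398 reads were counted per library, with a median of 32351263. Levels are given as CPM, the count of a gene scaled to a common library size after TMM normalisation. The library labelled T1 was left out. Its 4 kidney tubule markers summed to 42490 CPM of its library total and its hepatocyte markers to 556.5 CPM, where the other 49 libraries had at most 22.75 and at least 71650. In each of these 49 libraries the 7 hepatocyte markers tested were detected, with a summed level between 76150 and 262200 CPM. A list of 9 pericentral hepatocyte markers (Glul, Cyp2e1, Cyp1a2 and others) summed to 4909 to 11370 CPM in the non-tumour livers and to 26.2 to 5541 CPM in 24 of the 25 tumours analysed in groups. The exception was T24, an ALIOS diet DEN tumour, with 26890 CPM, of which Glul alone made up 17450 CPM. Results for the 39 genes that rest on T24 are given with and without it, and those for marker genes and other genes of the pathway only with it. RNA was taken from whole tissue, so fewer cells of a type and less RNA per cell cannot be told apart.

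The core of the antioxidant response element, TGACNNNGC (N is any base), was searched on both strands of RefSeq promoters of GRCm38.p6, each running from 250 bases before to 50 bases after the start of transcription. Promoters were listed for 34 of the 39 genes. The motif was found for 12 of the 34 (35.3%), and for 14% of the 27025 genes in the promoter table. The windows are shown for 7 of these 12 genes, with the motif in capitals and 8 bases on each side. Abcc4, Ugdh, Gstm5, Gstm7 and Txnrd1 also had the motif and are not shown. They are written 5′ to 3′ on the strand that reads TGAC, and a match describes the letters only.
Srxn1, chr2:152105544-152105568, minus strand: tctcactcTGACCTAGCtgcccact
G6pdx, chrX:74428921-74428945, plus strand: gtgtgcttTGACTGAGCtgacccgc
Nfe2l2, chr2:75704887-75704911, minus strand: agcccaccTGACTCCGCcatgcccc
Pgd, chr4:149166063-149166087, minus strand: ttcagagcTGACATTGCactgatcg
Gclm, chr3:122245415-122245439, minus strand: gtgagagtTGACGGTGCgcccggga
Gsta3, chr1:21240456-21240480, plus strand: ctcaggcaTGACATTGCatttttct
Mgst1, chr6:138140463-138140487, minus strand: ccgcctccTGACCGTGCcaagcccc
Among the genes shown, the motif was present both in genes that were higher in tumours (Srxn1, G6pdx, Nfe2l2, Pgd) and in genes that were lower (Gclm, Gsta3, Mgst1).

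In control diet liver the transferases were among the more abundant messages of the list. Per kilobase of exon, Mgst1, a membrane-bound transferase, had the highest median (1883 CPM per kb), followed by Gstp1 (630.5), Gstm1 (456.9), Gsta3 (359.8) and Gstz1 (199.1), the zeta class enzyme of tyrosine breakdown. The first 7 places in this order were all held by transferases. At the other end, Abcc4, an exporter of conjugates, had 0.182 CPM per kb, and Gsta1, Gstp2 and G6pdx had 0.325, 0.840 and 2.05 CPM per kb. Slc7a11, the cystine carrier, had a median of 0 and Gpx2, a glutathione peroxidase of the gut, a median of 0.0358 CPM. Neither was tested between the diets in liver or in the comparisons of a tumour group with liver. Slc7a11 was tested between tumour groups and for the difference between the diets, given last.

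The 21 transferase genes together took a median of 0.864% of all counts in control diet livers (0.695 to 1.02%) and 0.872% in ALIOS diet livers (0.742 to 1%). In spontaneous ALIOS diet tumours the median share was 0.362% (0.247 to 0.785%), in ALIOS diet DEN tumours 0.354% (0.262 to 1.17%, the highest being T24), and in control diet DEN tumours 0.434% (0.368 to 0.507%). The DEN tumours T23 and T25, at 0.886 and 0.795%, and the spontaneous tumour T6, at 0.785%, lay inside the range of ALIOS diet livers. The classes did not move alike: the microsomal class had a median of 0.393% in ALIOS diet livers and 0.0899% in the spontaneous tumours, whereas the theta class had 0.0366% and 0.0369%. These are shares of each library's own total, and therefore also move with the other transcripts in the tissue.

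**Figure D1:**
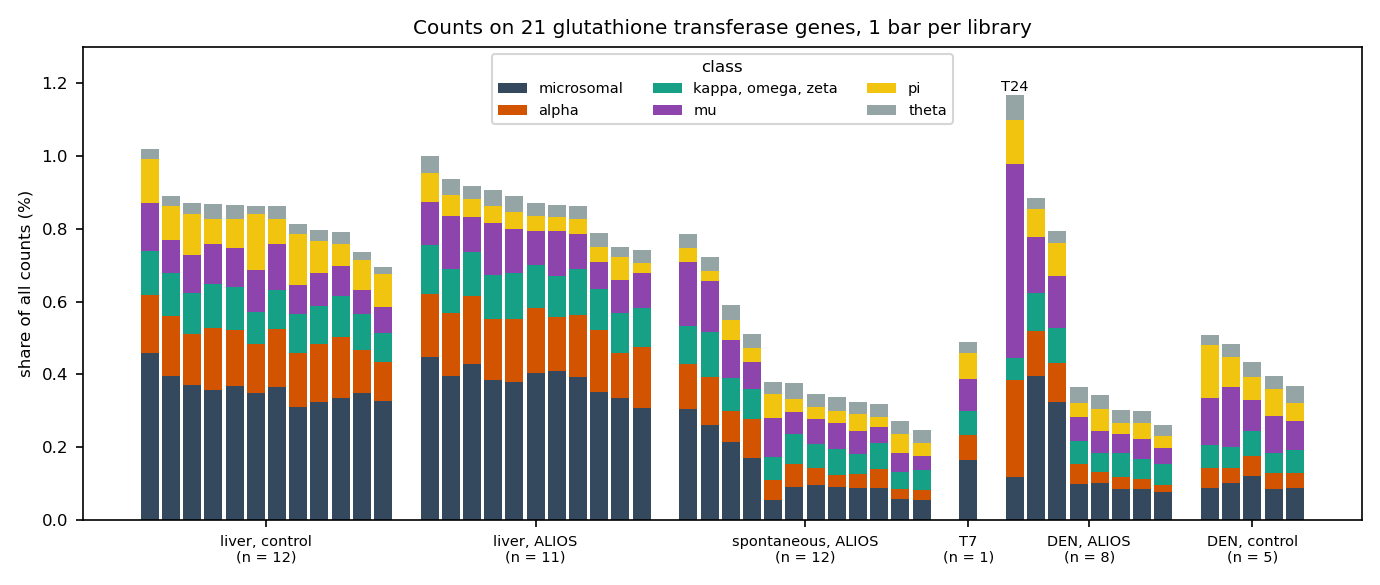
Share of all counts (%) that fell on the 21 glutathione transferase genes, with 1 stacked bar per library and 1 colour per enzyme class, ordered by share within each group (T1 left out). Livers stand between 0.695 and 1.02%, most tumours stand lower, and T24 reaches 1.17% with a mu class of 0.533%.

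Some rows cannot be read as single genes. Of the 100-base windows of Gstp2 transcripts, 41.6% are identical in Gstp1, and 46.9% are identical in some other gene. Of those of Gsta1, 64.7% are identical in Gm3776 and 24.3% in Gsta2. Reads in such windows may be lost or placed on the neighbour, so Gstp2 and Gsta1 are uncertain as separate rows. The low rows are the more exposed, since Gstp1 collected 1014875 reads over all 50 libraries and Gstp2 only 5258. The strand setting of the counting is not stated, and 13.6% of the exons of G6pdx overlap Ikbkg on the other strand.

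**Figure D2:**
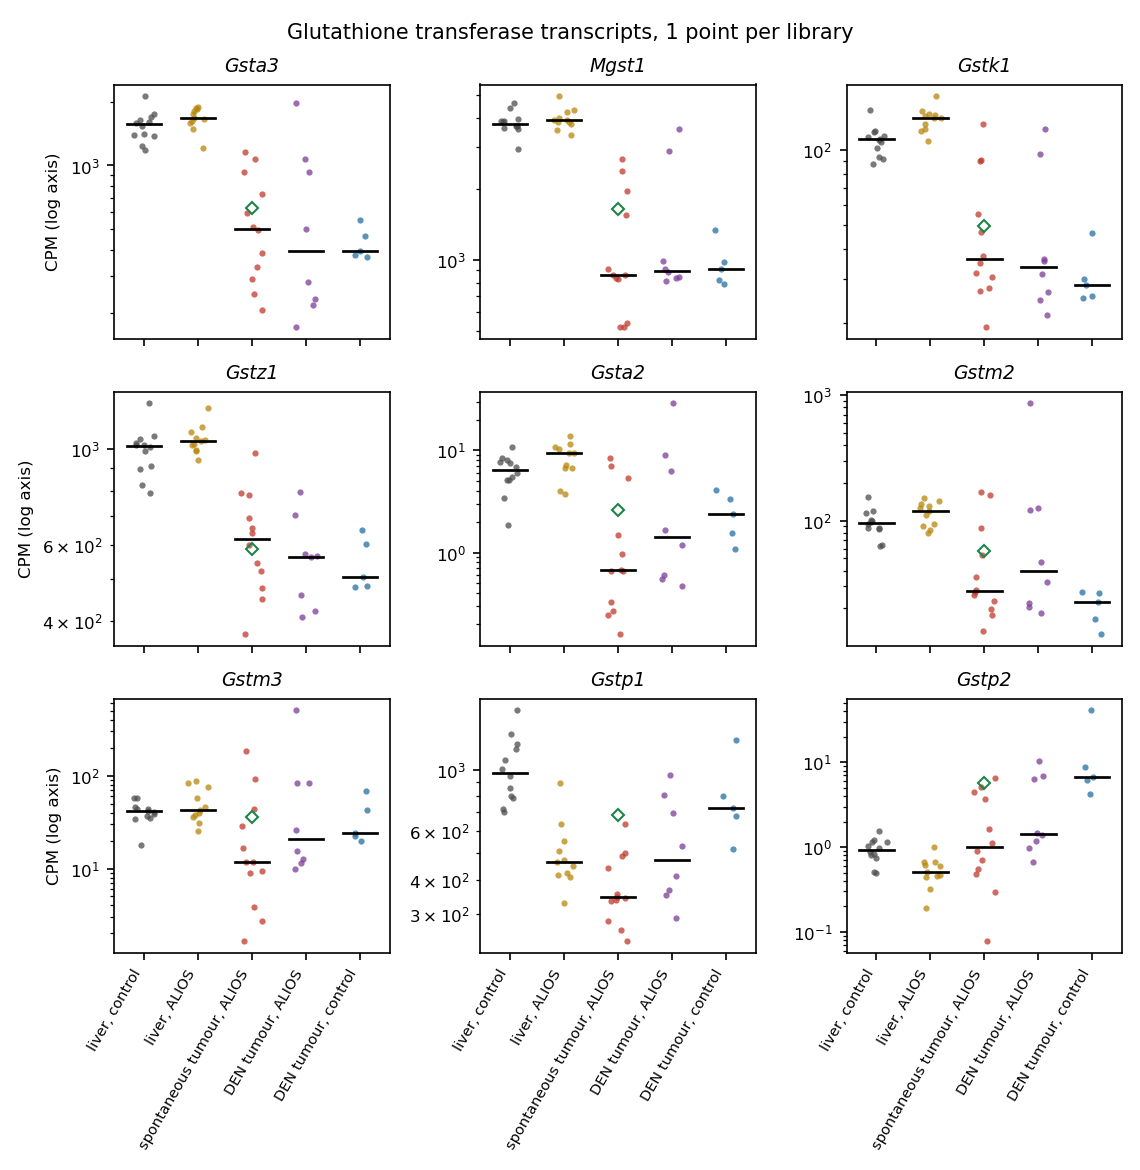
Level of 9 transferase transcripts in every library, in CPM on a log axis, by group, with a black line at the median and the control diet tumour T7 as a green diamond in the spontaneous tumour column. Gsta3, Mgst1, Gstk1 and Gstz1 are lower in most tumours than in any liver, Gstp1 is lower in ALIOS than in control diet livers, and Gstp2 is raised in part of the tumours.

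The first comparison asked what the ALIOS diet changed in non-tumour liver. Gstp1 was lower in ALIOS diet livers, at 0.489 of its control level, while the quinone reductase Nqo1 and the NADPH-producing enzyme G6pdx were higher, by 1.92-fold and 2.23-fold. Of the 37 members tested, 7 were higher and 3 were lower by edgeR's quasi-likelihood test at an adjusted p-value under 0.05, where 11.2% of all 13723 genes passed in either direction (6.73% higher, 4.51% lower). The median log2 fold change of the members was 0.19 and that of all genes tested was -0.02. The ranges of the diets overlapped for each of the 37 members, whereas 0.0729% of all genes lay wholly higher and 0.00729% wholly lower.

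Gstp1, a pi class transferase known to be abundant in male mouse liver, lies on chromosome 19 from 4035407 to 4037985 of GRCm38. It ranged from 702 to 1643 CPM in control diet livers, with a median of 976, and from 328 to 898 CPM in ALIOS diet livers, with a median of 465.2. N18 had the 898 CPM, and the other 10 ALIOS diet livers were below the lowest control diet liver. The log2 fold change was -1.03 (SE 0.16, n = 12 and 11, adjusted p = 0.00065 from edgeR). The near-copy Gstp2 was lower by -0.81 (SE 0.22, adjusted p = 0.0191), at levels of 0.193 to 1.54 CPM. Among the other 19 transferases, Gstt3 of the theta class and Gstk1 of the kappa class were higher, with log2 fold changes of 0.67 and 0.28 (adjusted p = 0.0344 and 0.0249). None of the 4 alpha, 7 mu and 2 microsomal genes passed the test. Gsta1 was at 0.95 (adjusted p = 0.153), Gsta2 at 0.42 (0.249), Gsta4 at 0.22 (0.288) and Gstm3 at 0.30 (0.328).

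On the NRF2 side, Nqo1 had 2.69 to 6.56 CPM in control diet livers (median 5.03) and 5.26 to 14.2 CPM in ALIOS diet livers (median 7.78). The highest control value was exceeded by 8 of the 11 ALIOS diet livers. The log2 fold change was 0.94 (SE 0.18, adjusted p = 0.00296). G6pdx, the first enzyme of the pentose phosphate pathway and a source of NADPH, rose by 1.16 on the log2 scale (SE 0.29, adjusted p = 0.0131), and its ALIOS diet values were widely spread, from 6.08 to 41.3 CPM against 3.01 to 10.4 CPM. The exporter Abcc4 (0.85, SE 0.18, adjusted p = 0.00579), the sulfiredoxin gene Srxn1 (0.42, SE 0.10, adjusted p = 0.0128) and transaldolase, Taldo1 (0.19, adjusted p = 0.0416), were also higher. Ugdh, which makes UDP-glucuronic acid, was lower (-0.34, adjusted p = 0.0112).

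The regulators and the glutathione synthesis genes gave no call between the diets in liver. Nfe2l2 had a log2 fold change of 0.20 (SE 0.13, adjusted p = 0.31) and Keap1 of -0.02 (adjusted p = 0.885). Gclc and Gclm, the catalytic and modifier subunits of glutamate-cysteine ligase, had -0.19 and -0.12 (adjusted p = 0.541 and 0.118). For Gclc, 2 control diet livers, N11 and N12, stood high at 341 and 348 CPM beside a median of 154.7. Of 64 other genes of the pathway that were tested, 6 were higher and 1 was lower. Among the higher were Cbr3, a carbonyl reductase (1.36, SE 0.28, adjusted p = 0.00579), Gsto2, an omega class transferase (0.80, SE 0.21, adjusted p = 0.0191), and Hpgds, a prostaglandin synthase of the sigma class (1.07, SE 0.30, adjusted p = 0.0237), and the lower gene was Chac2, which breaks down glutathione (-0.27, SE 0.06, adjusted p = 0.00696).

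Macrophage markers moved with the diet in the same livers: 4 of 6 were higher, none was at 0, and their sum was 166.3 to 549.5 CPM on the ALIOS diet against 104.3 to 308.1 CPM on the control diet. None of the 7 hepatocyte markers was called. Among other lists, cholangiocyte markers had summed medians of 45.06 CPM on the ALIOS diet and 25.39 CPM on the control diet. Proliferation markers had 5.002 and 2.415 CPM, and erythroid markers 134.4 and 166.4 CPM. The part of other cells in the diet differences was not tested. When all groups shared 1 estimate of the spread, the calls of Gstp1 and G6pdx were left of the 10. The calls of Taldo1 and Gstt3 were lost on leaving out any 1 of 14 and of 7 of the 23 livers, and both were lost without N11 and N12.

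The second comparison set spontaneous tumours against non-tumour liver within the ALIOS diet (12 against 11). Transferases were mostly lower in the tumours, led by Gsta2, Mgst1, Gsta3 and Gstk1 at 0.248 to 0.374 of their liver level, while Gstp2, G6pdx, Nfe2l2, Srxn1, Gclc and Pgd were higher. Of the 37 members, 6 were higher and 21 lower, beside 52.8% of all 14183 genes called (26.9% higher, 25.9% lower). With library totals as the scale, which moved the median of all genes up by 0.18, there were 8 higher and 12 lower. On that scale 5526 of the 14183 genes were called higher and 2059 lower. By group, 1 of 21 transferases was higher and 14 were lower, and 5 of the 16 other members tested were higher and 7 lower. Among the 14, the calls of Mgst3, Gstm1 and Gstp1 were lost on leaving out any 1 of 17, of 15 and of 7 of the 23 libraries. The median log2 fold change was -0.44 over members and 0.01 over all genes. Groups did not overlap for 3 members, Gsta3, Mgst1 and Gclm, all lower in tumours, as were 3.45% of all genes; 1.24% of genes and no member lay wholly higher.

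Mgst1, which protects membranes against oxidised lipids, had 3387 to 4960 CPM in livers (median 3930) and 517 to 2685 CPM in tumours (median 859.6). The highest tumour was thus below the lowest liver. The log2 fold change was -1.77 (SE 0.25, adjusted p = 5.53e-06). Gsta3, the main alpha class enzyme of mouse liver, had 1204 to 1889 CPM in livers (median 1684) and 207 to 1163 CPM in tumours (median 502.5), again with no overlap, and fell by 1.57 on the log2 scale (SE 0.24, adjusted p = 1.35e-05).

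Gstk1, the kappa class enzyme of mitochondria and peroxisomes, had 108 to 165 CPM in livers and 19.2 to 127 CPM in tumours (log2 fold change -1.42, SE 0.25, adjusted p = 5.64e-05). Its highest tumour, T2, lay inside the liver range. Gsta2 had 3.72 to 13.7 CPM in livers and 0.159 to 8.34 CPM in tumours (-2.01, SE 0.56, adjusted p = 0.00419), which was the largest decrease among members and also had the widest error of the decreases called. Gstm2, a mu class enzyme, had 79.2 to 152 CPM in livers and 13.2 to 170 CPM in tumours (-1.11, SE 0.37, adjusted p = 0.0157). Here the tumours spanned the whole liver range and more, and the call was lost with library totals. Its neighbour Gstm3 was spread still more widely in tumours, from 1.65 to 185 CPM, and was not called (-0.61, adjusted p = 0.394), though without T6 it was (-1.26, adjusted p = 0.0384).

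The spread of these genes over tumours went together with pericentral markers, of which 7 of 9 were lower in the tumours. Of the 12 tumours, T2, T6, T5 and T3 had the 4 highest sums of the 9 markers, 2299 to 4718 CPM against 26.2 to 743 CPM in the other 8. The same 4 tumours held the 4 highest values of Gstm2, Gstm3, Gsta3, Mgst1, Gsta2 and Gstk1. For Gstm2 these were 160, 170, 53.5 and 88.1 CPM in that order of tumours. Gstm1 did not follow this order: T13, with the lowest marker sum, had 821 CPM, below T6 (953 CPM) and above T2, T3 and T5. Nor did the 5 control diet DEN tumours, where T18 had the lowest sum and the highest Gstm2 and Gstm3. These are descriptions, and they were not tested. Other markers moved as well. The summed periportal markers had medians of 2937 CPM in livers and 1360 CPM in tumours, and the hepatocyte markers 106400 and 198200 CPM. In T2, T6 and T3 the hepatocyte markers summed to 82970, 90710 and 130400 CPM, within the liver range of 76150 to 145400 CPM. The next lowest tumour, T5, had 157400 CPM. In the paper's clustering, T6 fell in a sub-cluster with non-tumour livers. Macrophage markers were lower for 5 of 6, with sums of 41.4 to 294.1 CPM in tumours against 166.3 to 549.5 CPM, and the 3 highest tumours were T2, T6 and T3. Proliferation markers were higher for 3 of 4. The part of any of these in the member values was not tested.

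**Figure D3:**
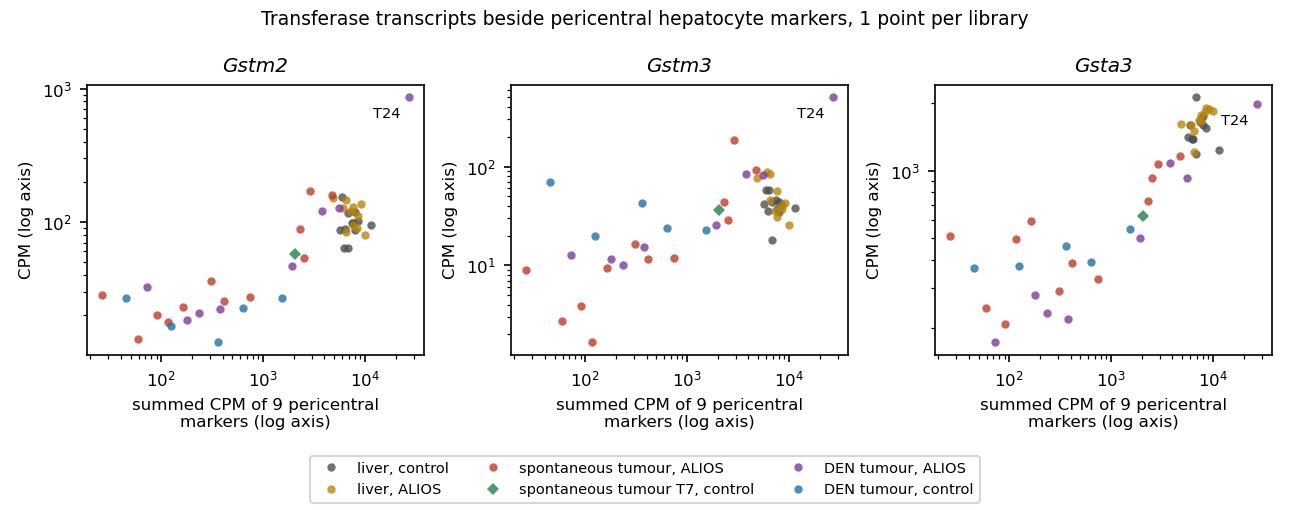
Level of Gstm2, Gstm3 and Gsta3 (CPM, log axis) against the summed level of 9 pericentral hepatocyte markers (CPM, log axis), with 1 point per library and 1 colour per group. On the ALIOS diet the tumours with the highest marker sums have the highest values of the 3 genes, and T24, at 26890 CPM, is at the upper right; in control diet DEN tumours T18 has the lowest sum, 44.9 CPM, and the highest Gstm2 and Gstm3.

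The pi class rows moved apart. Gstp1 was lower (-0.44, SE 0.17, adjusted p = 0.0313), with 239 to 637 CPM in tumours, whereas Gstp2 was higher (1.95, SE 0.53, adjusted p = 0.0036), with 0.193 to 0.99 CPM in livers and 0.0774 to 6.46 CPM in tumours. The Gstp2 median was 0.998 CPM in tumours, so the increase sat in part of them. The Gstp1 call was lost on leaving out any 1 of N18, N21, T5, T6, T8, T10 and T12. It was also lost with library totals, with no filter, with all 6 groups in 1 fit and with T1 kept. Gsta4 was lower (-0.51, SE 0.09, adjusted p = 8.42e-05), and Gsta1 was not called as a row (0.58, adjusted p = 0.315) but was lower when summed with Gsta2 (-1.52, adjusted p = 0.00645). The theta class gave no call among its 3 genes.

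Among the regulators, Nfe2l2 was higher in tumours, with 75.2 to 210 CPM (median 142.1) against 55.9 to 122 CPM (median 80.5), a log2 fold change of 0.74 (SE 0.16, adjusted p = 0.000376). Keap1 had medians of 47.04 and 49.03 CPM and was not called (-0.03, adjusted p = 0.714). The members known as NRF2 targets did not move in 1 direction. Srxn1, which repairs oxidised peroxiredoxins, was higher (0.73, SE 0.14, adjusted p = 0.000131), with 38.5 to 101 CPM against 24.2 to 51.2 CPM. Nqo1 was not called (-0.50, SE 0.31, adjusted p = 0.178), and its tumour values, from 1.05 to 15.8 CPM, reached below and above those of the livers. Hmox1, heme oxygenase, was lower (-1.06, SE 0.24, adjusted p = 0.00069).

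The subunits of glutamate-cysteine ligase went opposite ways in the spontaneous tumours. Gclc was higher (0.61, SE 0.14, adjusted p = 0.000855), at 123 to 368 CPM in tumours against 123 to 178 CPM in livers. Gclm was lower (-0.60, SE 0.09, adjusted p = 5.57e-06), at 95.4 to 169 CPM against 171 to 213 CPM, with no overlap. Within the pentose phosphate pathway G6pdx and Pgd, the NADPH-producing steps, were higher (1.64, SE 0.27, adjusted p = 2.33e-05, and 0.35, adjusted p = 0.0205), while Tkt and Taldo1 of its non-oxidative branch were lower (-0.41 and -0.65). Of the 64 other pathway genes, 11 were higher and 33 lower, and among 18 peroxidase, peroxiredoxin and thioredoxin genes 13 were lower and none higher. The exporter Abcc5 (2.65, SE 0.25, adjusted p = 7.93e-08), the small MAF gene Maff (1.76) and the reductase gene Ptgr1 (1.22) were higher. Cth, which makes cysteine (-1.63, adjusted p = 5.99e-08), catalase, Cat (-1.21), and the mitochondrial superoxide dismutase Sod2 (-0.96) were lower.

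**Figure D4:**
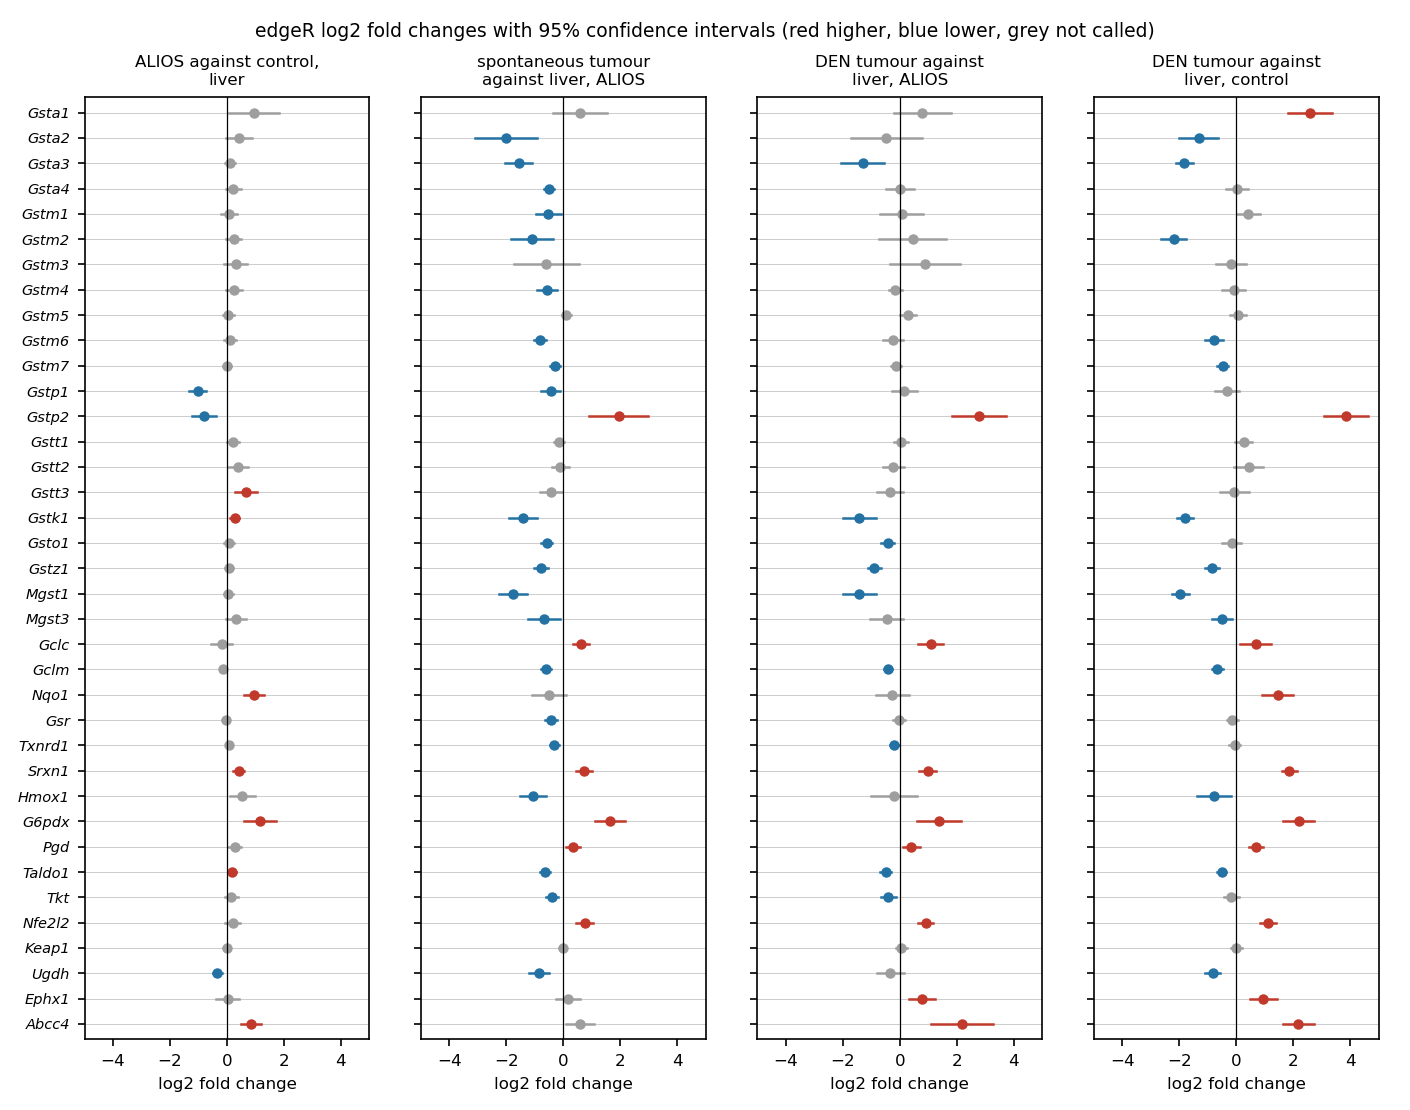
Log2 fold change of the 37 tested members in 4 comparisons, with the 95% confidence interval as a line; red is called higher, blue called lower and grey not called by edgeR. The diet panel lies mostly near 0, and Mgst1, Gsta3, Gstk1 and Gstz1 are called lower in each of the 3 tumour panels.

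The third comparison set DEN tumours against liver within the ALIOS diet (8 against the same 11 livers). Of the 37 members, 8 were higher and 9 lower, where 47.5% of all 14434 genes were called (27.7% higher, 19.8% lower). Leaving out T24 gave 8 higher and 16 lower, where 52.5% of genes were called, and all 17 calls were kept. Gstp2 was higher (2.77, SE 0.48, adjusted p = 0.000108), as were Gclc (1.08, SE 0.23, adjusted p = 0.00068), Srxn1 (0.98, SE 0.15, adjusted p = 3.61e-05) and Nfe2l2 (0.91, SE 0.14, adjusted p = 3.32e-05). G6pdx was higher too (1.39, SE 0.40, adjusted p = 0.00735). Gstk1 (-1.42, SE 0.29, adjusted p = 0.000552), Mgst1 (-1.42, SE 0.29, adjusted p = 0.000583) and Gsta3 (-1.30, SE 0.38, adjusted p = 0.00914) were lower. T23 and T25 had 3604 and 2909 CPM of Mgst1 and 122 and 96.3 CPM of Gstk1. Both T23 values lay within the range of these livers. Their Gsta3, at 1077 and 927 CPM, was below the livers. Hepatocyte markers summed to 89930, 85360 and 105100 CPM in T23, T24 and T25, within the liver range of 76150 to 145400 CPM. The other tumours had 179700 CPM or more, and the part of this was not tested. For Srxn1 the lowest tumour, at 56.6 CPM, was above the highest liver, at 51.2 CPM, which was so for 4.32% of all genes. Gstz1 and Gclm lay below all livers, as 4.82% of genes did, with log2 fold changes of -0.89 (SE 0.12, adjusted p = 9.56e-06) and -0.42 (SE 0.08, adjusted p = 0.000172).

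T24 set several values in this group. It had 867 CPM of Gstm2, 508 CPM of Gstm3, 29 CPM of Gsta2 and 50 CPM of Abcc4, where the medians of the 8 tumours were 39.41, 20.53, 1.434 and 3.54 CPM. Its Mgst1, at 914 CPM, and Gstk1, at 36.3 CPM, were close to the medians of 899.1 and 33.63 CPM. With T24, Gstm2 had a log2 fold change of 0.45 and was not called, and without it -1.04 (adjusted p = 0.0219). Gsta2 went from -0.47 to -1.58 (adjusted p = 0.018), Gsta4 from 0.00 to -0.50 (adjusted p = 7.05e-06) and Hmox1 from -0.21 to -0.97 (adjusted p = 0.00686). Abcc4 was called higher both ways, at 2.18 with T24 and 0.75 without it (adjusted p = 0.0031 and 0.0177). With all 8 tumours, Keap1 (0.06), Gstp1 (0.15), Nqo1 (-0.26), Gsta1 (0.79) and Gstm3 (0.89) were not called, nor were they without T24 (-0.02, -0.01, -0.10, 0.29 and -0.55).

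Of the 64 other pathway genes, 12 were higher and 22 lower in the ALIOS diet DEN tumours, and of the 18 peroxidase, peroxiredoxin and thioredoxin genes 1 was higher and 11 lower. These counts and the values that follow include T24, and they were not made without it. Abcc5 (2.65), the heme transporter gene Slc48a1 (1.54) and Osgin1 (1.66) were higher, and Idh1, a source of cytosolic NADPH (-0.88), Sod2 (-1.01) and Cth (-1.69) were lower.

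The next comparison set DEN tumours against liver within the control diet (5 against 12) and shares no library with the 2 before it. Of the 37 members, 10 were higher and 13 lower, where 51.7% of all 14731 genes were called (27.3% higher, 24.4% lower). The groups did not overlap for 7 members that were higher and 8 that were lower, against 11.8% and 10.4% of all genes. Gstm2 had 16.6, 27.01, 26.8, 22.6 and 12.4 CPM in T17 to T21, against 63.3 to 155 CPM in livers (median 96.29). All 5 tumours were far below the lowest liver (log2 fold change -2.20, SE 0.22, adjusted p = 1.56e-07). Mgst1 had 818, 978, 1337, 912 and 790 CPM against 2951 to 4627 CPM in livers (-1.97, SE 0.15, adjusted p = 3.86e-09). Gsta3 (-1.83, SE 0.15, adjusted p = 1.23e-08) and Gstk1 (-1.80, SE 0.15, adjusted p = 8.73e-09) were separated in the same way. All 9 pericentral markers were lower in these tumours, with a sum of 44.9 to 1522 CPM, and their part was not tested.

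On the side of the increases, Srxn1 had 80.8, 123, 81.0, 72.0 and 155 CPM in the 5 control diet DEN tumours, against 25.2 to 36.1 CPM in livers. The log2 fold change was 1.87 (SE 0.14, adjusted p = 2.2e-09). Nqo1 had 11.9, 27.9, 8.01, 10.97 and 4.97 CPM against 2.69 to 6.56 CPM. It was called higher (1.46, SE 0.28, adjusted p = 0.000228) although T21 lay inside the liver range. Nfe2l2 was between 139 and 170 CPM in all 5, above the highest liver at 92.2 CPM (1.11, SE 0.14, adjusted p = 2.43e-06), and Keap1 had a log2 fold change of 0.00. Gstp2 had 4.26, 6.80, 8.77, 6.23 and 41.4 CPM against 0.492 to 1.54 CPM (3.86, SE 0.39, adjusted p = 1.35e-07), while Gstp1 was not called (-0.34, adjusted p = 0.204). T21 was the highest of the 5 for both rows.

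G6pdx (2.20, SE 0.28, adjusted p = 2.14e-06) and Abcc4 (2.18, SE 0.27, adjusted p = 1.78e-06) were also above every control diet liver. Gclc was higher at the edge of the threshold (0.69, SE 0.28, adjusted p = 0.0479), a call lost with RLE scaling (adjusted p = 0.052) and without T17, T18, T20 or T21, and Gclm was lower (-0.67, SE 0.10, adjusted p = 1.11e-05). Gsta1 was higher as a row (2.58, adjusted p = 2.3e-05), at 1.32 to 3.03 CPM, but summed with Gsta2 it gave -0.49 and no call. Gsta2 was lower (-1.32, SE 0.35, adjusted p = 0.0039), and Gsta4 (0.04) and Gstm3 (-0.18) were not called. Of the 64 other pathway genes, 20 were higher and 31 lower, with Slc48a1 (1.87), Abcc5 (3.10) and Mafk (1.40) among the higher and Cth (-2.22), Chac2 (-1.12) and Sod2 (-1.12) among the lower.

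The 6 members higher in spontaneous ALIOS diet tumours were all higher in control diet DEN tumours, where they made up 60% of 10. Of the 21 lower, 13 were lower there too, 61.9% of 21 and 100% of 13. Between the DEN tumours of the 2 diets, 8 higher members were shared (100% of 8 and 80% of 10) and 6 lower ones (66.7% of 9 and 46.2% of 13). Without T24 the shared lower members were 12 (75% of 16 and 92.3% of 13), and the shared higher ones again 8. No member was called in opposite directions in either pair. Among the shared calls, those of Hmox1 and Gclc on the control diet were lost on leaving out any 1 of 5 and of 4 of the 5 tumours. The Pgd call in ALIOS diet DEN tumours was lost for 4 of the 8 tumours. The Mgst3 call was lost for 17 of the 23 libraries in the spontaneous comparison and for 1 of the 5 control diet DEN tumours. The share of all genes called alike in both comparisons was not computed. These overlaps can therefore not be set apart from the general difference between tumour and liver.

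**Figure D5:**
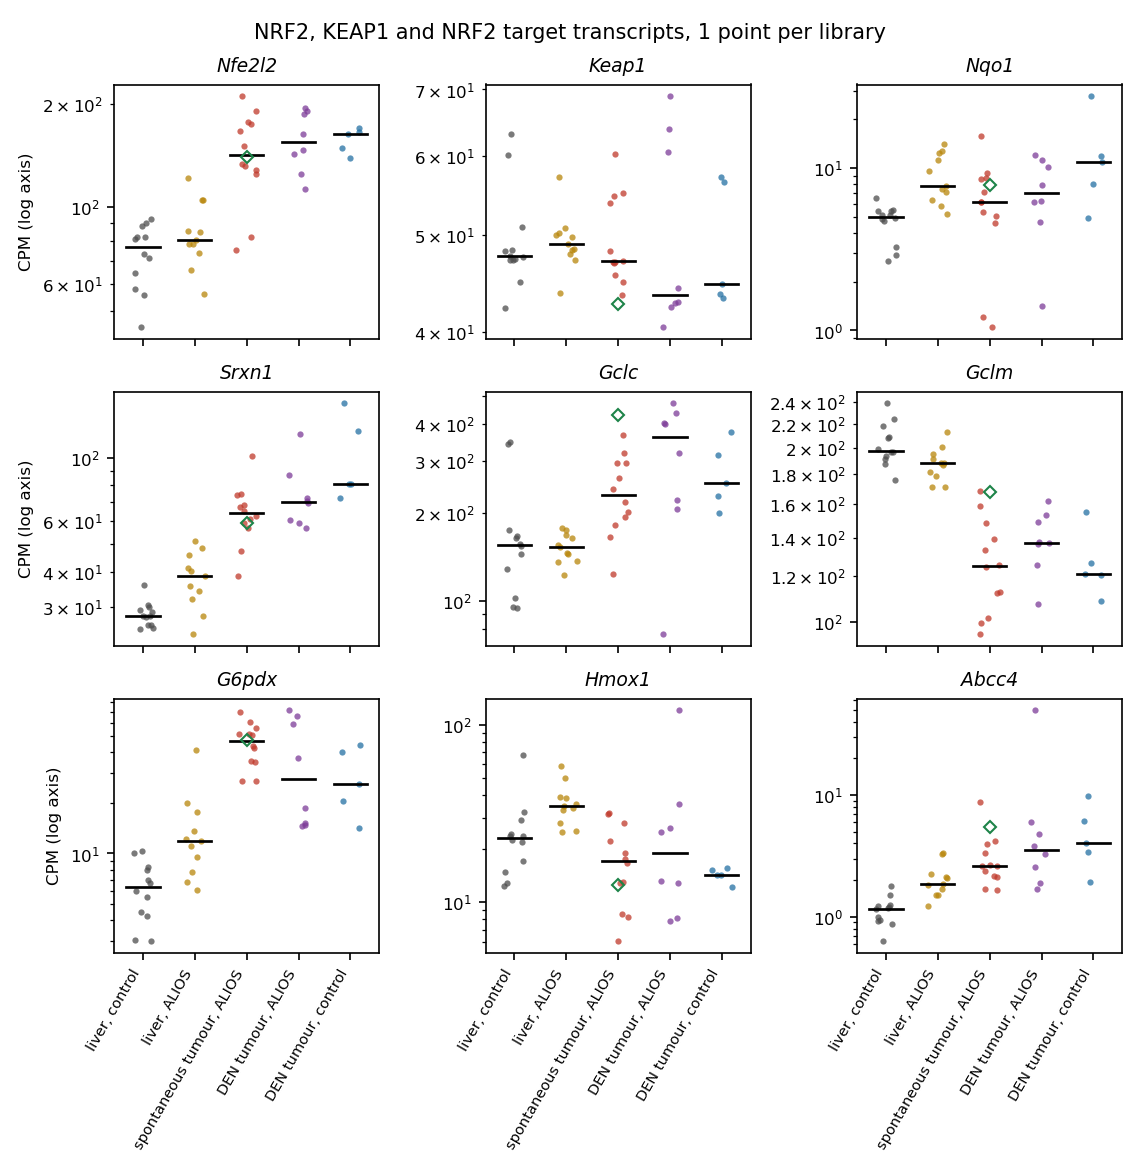
Level of Nfe2l2, Keap1 and 7 NRF2 pathway genes in every library, in CPM on a log axis, by group, with a black line at the median and T7 as a green diamond. Keap1 is level over the groups, Nfe2l2 and Srxn1 are higher in tumours, and Nqo1 runs from 1.05 to 27.9 CPM among tumours.

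Tumours were then compared with each other. Between DEN and spontaneous tumours on the ALIOS diet (8 against 12), edgeR called 0 of 38 members and 0% of 14845 genes. Abcc4 was at 1.55 (adjusted p = 0.388) and Gstm2 at 1.53 (adjusted p = 0.636), and without T24 they were at 0.10 and 0.01. Nfe2l2 was at 0.11, Keap1 at 0.03, Gclc at 0.41 and Nqo1 at 0.18. Between the diets in DEN tumours (8 against 5), 0 of 38 members and 0.0134% of 14944 genes were called. Nfe2l2 (0.01), Keap1 (0.06), Gclc (0.21), Gclm (0.13), Nqo1 (-0.77) and Gstp1 (-0.54) had adjusted p-values from 0.728 to 0.995. No member had groups apart, beside 0.294% of genes wholly higher and 0.328% wholly lower. Gstm2 was at 2.92 (SE 1.01, adjusted p = 0.407), and at 1.39 without T24 (adjusted p = 0.323). Gstp2 was at -1.88 (SE 0.74, adjusted p = 0.489), and at -2.08 without T24 (adjusted p = 0.308). Intervals this wide leave differences of several-fold undetectable with these libraries.

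The last comparison asked whether the change from liver to DEN tumour differed between the diets, and reuses the libraries of both comparisons of DEN tumours with liver. The difference of the log2 changes, ALIOS diet minus control diet, was called positive for 1 of 38 members and negative for 2, where 2.27% of 15606 genes were called (1.04% higher, 1.23% lower). Nqo1 rose from liver to tumour on the control diet and was not called on the ALIOS diet, a difference of -1.72 (SE 0.43, adjusted p = 0.0268). For Srxn1 the difference was -0.88 (SE 0.22, adjusted p = 0.0287), its increase being smaller on the ALIOS diet. Both were still called without T24 (adjusted p = 0.0142 and 0.00383). Without T18 neither was called, and without T21 Srxn1 was not. The Nqo1 call was also lost with all 6 groups in 1 fit (adjusted p = 0.0646) and the Srxn1 call with library totals (adjusted p = 0.0946). Without T24, Abcc4 (-1.44, adjusted p = 0.029) and Gsta1 (-2.30, adjusted p = 0.0408) were called as well. Nfe2l2 (-0.20), Keap1 (0.06) and Gstp2 (-1.08) gave no call. Nor did Slc7a11 (-3.22, adjusted p = 0.0796, and -3.29 without T24, adjusted p = 0.0588). Its levels were 0.187 to 2.80 CPM in control diet DEN tumours and 0 to 0.169 CPM in control diet livers. Compared directly between the diets in DEN tumours, Slc7a11 was at -1.31 (adjusted p = 0.644 from edgeR) and was not called. The third call, Gstm2 (2.67, SE 0.75, adjusted p = 0.0495), was lost without T24 (1.13, adjusted p = 0.12) and without any 1 of T17 to T21, and it joins a change of -2.20 on the control diet with one of 0.45, not called, on the ALIOS diet. In the same test 5 of 9 pericentral markers were called with a positive difference. T24 was in this test, with a marker sum of 26890 CPM, where the other ALIOS diet DEN tumours had 72.6 to 5541 CPM. The marker count was not made without T24. Livers differed by diet for both Nqo1 and Srxn1, so the difference also holds the levels from which each diet started. Of the other pathway genes, with T24 included, Chac2 (0.62) and Cbs (1.31) had a higher and Cbr3 (-2.94) a lower difference.

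The single spontaneous tumour of the control diet, T7, has no replicate and was not tested. Of the 39 members, 10 were above every control diet liver, 10 below and 19 within their range, and 24 were within the range of the control diet DEN tumours. Of 13952 genes with a mean of at least 10 counts, T7 lay above the livers for 20.5% and below them for 21.7%, and of the 37 members among them for 9 and 10. It had 428 CPM of Gclc, 47.7 CPM of G6pdx, 140 CPM of Nfe2l2 and 5.72 CPM of Gstp2.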

How the data were processed

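RNA-seq was done on 50 liver and tumour samples, and the deposited table holds raw counts per gene. Per the methods, the authors sequenced stranded mRNA libraries as paired-end reads, aligned them to mm10 with STAR and counted exons with HTSeq (intersection-nonempty) on Gencode M6; tool versions and the strand option are not given in the sources used here. Reads shared by near-identical genes may therefore be lost or misplaced. The members and gene lists were chosen with earlier results of these data known. Groups were taken from the sample labels, and T1 was left out.

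Genes were filtered with filterByExpr, scaled by TMM (CPM for display), and tested with the quasi-likelihood test of edgeR 4.0.16 in R 4.3.3, in fits holding only the groups compared. P-values were adjusted by the Benjamini-Hochberg method over all genes tested, with a threshold of 0.05, and the SE is the log2 fold change divided by the root of the F statistic. The labels do not say which samples share a mouse. The paper names as many mice as sequenced spontaneous tumours, so those tumours came from separate mice. Whether DEN tumours share a mouse, or a liver and a tumour do, is not given in the sources used here. The p-values thus measure the spread between these samples, which may in part be technical. No 2 libraries of a group held like counts. Members were named where called with an absolute log2 fold change of at least 1 (at most 12 per comparison, by smallest p), Nfe2l2, Keap1, Nqo1, Gclc, Gclm, Gstp1, Gstp2, Gsta1, Gsta2, Gsta4 and Gstm3 in addition; of other pathway genes, the 3 called with the smallest p in each direction. Other members were named after their values were seen. Alternatives were DESeq2 1.42.0, RLE scaling, library totals, no filter, all 6 groups in 1 fit, summed near-identical rows, keeping T1 and leaving out single libraries; leaving out T24, or N11 and N12, was chosen after seeing the data. The code was tested on simulated data. Promoters came from RefSeq on GRCm38.p6 and gene positions and exon lengths from Gencode on GRCm38. Figures were drawn with matplotlib 3.10.9.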

Additional observations from a re-analysis of the deposited data

Results flagged for a closer look

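In groups of 4 to 10 libraries, 78 sets of member values were examined by Dixon's criterion, and 8 had 1 library well separated from the others, where chance gives about 5% (3.9). Of the 8, 6 were T24 in the ALIOS diet DEN tumours. It had 50 CPM of Abcc4 (the other 7 had 1.69 to 6), 154 CPM of Gsta4 (29.8 to 39.3), 36.6 CPM of Gstm5 (13.6 to 18.3) and 426 CPM of Gstt1 (208 to 271). It was low in Gclc, at 77 CPM (206 to 472), and in Nqo1, at 1.41 CPM (4.69 to 12.1). In control diet DEN tumours, T20 was low in Gsta4 at 34.5 CPM (44.6 to 47.5) and T21 was low in Gsto1 at 23.4 CPM (48 to 54.3).

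The change from liver to DEN tumour differed between the diets for Gstm2 (2.67 on the log2 scale), Nqo1 (-1.72) and Srxn1 (-0.88) by edgeR's interaction test. The Gstm2 call (adjusted p = 0.0495) was lost without T24 (1.13), without any 1 of T17 to T21, without N11 and N12, under RLE scaling, with no filter and with all 6 groups in 1 fit. In the unreplicated tumour T7, 10 of 39 members were above every control diet liver, where 20.5% of 13952 genes were.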

How the results depend on the processing

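No paired analysis was possible because the labels number livers and tumours separately and give no mouse. With all 6 groups in 1 fit, 2 members were called for diet in liver (1 higher, 1 lower), 1 between DEN and spontaneous tumours (Abcc4, 1 higher), 1 for diet in DEN tumours (Gstm2, 1 higher) and 1 for the difference between diets (0 higher, 1 lower). Library totals gave 12 lower in spontaneous tumours, where they moved the median of all genes by 0.18 on the log2 scale and 2059 of 14183 genes were lower. They gave 1 lower for the difference between diets. That comparison had 0 higher under RLE scaling, with no filter, without T24 and without N11 and N12, and 4 lower without T24. Leaving out 1 library gave 8 to 12 calls for diet in liver and 24 to 28 in spontaneous tumours. Where DEN tumours were compared with liver, only tumours were left out in turn, and no single liver was. This gave 15 to 24 calls in ALIOS diet DEN tumours (8 to 16 lower, the 16 without T24) and 20 to 23 in control diet DEN tumours. For the difference between diets, leaving out 1 of T17 to T21 gave 0 to 2 calls, 0 to 0 higher and 0 to 2 lower, with 0 without T18. Directions turned for Gsta1 with its near-identical row summed (-1.52 in spontaneous and -0.49 in control diet DEN tumours), and, in ALIOS diet DEN tumours, for Gsta4 (-0.48 with DESeq2, -0.50 without T24) and Gstm2 (-0.94 and -1.04). Leaving out 1 tumour gave -0.50 to 0.068 for Gsta4 and -1.04 to 0.62 for Gstm2. The difference between diets for Abcc4 became -1.44 without T24. DESeq2 replaces outlying counts in large groups. Of the single-gene values under settings other than leaving out 1 library, 1590 kept their side of the threshold (77 of these, none of them called, changed sign), 49 lost the call, 16 gained it and 7 turned with a call on one side. Gstm3 went from 0.89 to -0.55 in ALIOS diet DEN tumours without T24, with no call either way. The cause was not tested. Depth limits Gsta1, Gstp2, Slc7a11 and Gpx2.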
